A study of Mus musculus with 16 samples.

Results

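Ifit1, Ifit2, Ifit3, Ifit3b, Mx1, Mx2, Isg15, Rsad2, Ifi44 and Xaf1 are genes that cells switch on when interferon reaches them, and most of their products act directly on viruses. They were followed in the proximal jejunum, the upper middle stretch of the small intestine, of CBA/J mice, an inbred strain, all of them male and 8 weeks old. The 10 genes were chosen by name as the core antiviral effectors, with their estimated counts over the 4 groups of the study in view. They are 10 of the 37620 genes in the files, and all 10 were among the 16558 genes with enough counts to test. The values below therefore describe the pattern for which the genes were picked and are no independent support for it.

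The study crossed a methionine-adequate diet or a methionine-supplemented diet (300%) with 0 or 8.5 Gy of gamma rays, in 4 groups of 4 libraries. The groups were adequate unirradiated, adequate irradiated, supplemented unirradiated and supplemented irradiated. The design text names a period of 6 days without saying whether it counts time on the diet or time after irradiation. All mice shared strain, sex and tissue, and no genotype or other agent is given. Libraries held between 2.57 and 15.51 M counts (1 M is 1000000), with under 4 M in adequate unirradiated replicate 1, adequate irradiated replicate 2 and supplemented irradiated replicate 1. The 9 enterocyte markers, which define the absorptive lining of the jejunum, were all detected, at a summed 13853 to 58757 CPM (counts scaled to a library size of 1 M) per library. Of 8 markers of other gut segments and pancreas, Car1 was at 0 in every library and Fabp6, Slc10a2 and Gkn1 were too low to test. The other 4 had enough counts to test and summed to 4.22 to 22.6 CPM per library, so such transcripts were low but present. Adequate irradiated replicate 4 and supplemented irradiated replicate 4 stood apart from their groups for several of the genes, and the results that rest on them are given with and without them. The tissue was measured in bulk, so fewer cells of a type and less RNA per cell cannot be told apart.

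Interferons of type I and type III bind receptors on the cell surface, and the kinases Jak1 and Tyk2 then phosphorylate transcription factors of the STAT family. Stat2 joins Irf9 in a complex that binds the interferon-stimulated response element (ISRE) in the promoters of antiviral genes. In the intestine the epithelium answers mainly to type III interferon, and immune cells of the lamina propria answer to type I. The Ifit proteins bind foreign RNA and hold back its translation, Mx proteins are dynamin-like GTPases that trap viral particles, and Isg15 is a ubiquitin-like tag that is joined to other proteins. Rsad2, also called viperin, makes a nucleotide that stops viral polymerases. Xaf1 binds the inhibitor of apoptosis XIAP, and Ifi44 is an interferon-induced cytoplasmic protein.

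Promoter sequences are shown because the ISRE is the shared element through which interferon acts on such genes. RefSeq promoter windows (build GRCm38.p6) were found for 8 of the 10 genes by symbol. Mx1 and Mx2 had no entry. The 250 bases before each start were searched on both strands for the ISRE core GAAANNGAAA, which reads TTTCNNTTTC on the other strand. Matches were found for 5 of the 8 genes, against 2.98% of 32851 promoter windows. A pair of matches or more stood in 4 of the 8, against 0.18% of all windows. In the stretches below, read 5′ to 3′ on the strand of the gene, capitals mark the matches. They lie at chr19:34640763-34640835 (plus strand) for Ifit1, chr19:34583351-34583438 (plus) for Ifit3, chr4:156200853-156200918 (minus) for Isg15 and chr12:26456541-26456594 (minus) for Rsad2.
Ifit1: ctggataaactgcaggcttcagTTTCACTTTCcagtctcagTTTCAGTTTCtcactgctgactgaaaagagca
Ifit3: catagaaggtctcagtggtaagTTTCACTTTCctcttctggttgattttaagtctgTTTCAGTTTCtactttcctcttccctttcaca
Isg15: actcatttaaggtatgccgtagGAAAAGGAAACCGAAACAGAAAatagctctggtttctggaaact
Rsad2: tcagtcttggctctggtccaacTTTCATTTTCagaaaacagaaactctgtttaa

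The Ifit1 and Ifit3 stretches hold the same 2 words, TTTCACTTTC and TTTCAGTTTC, at 104 and 85 bases before the start in Ifit1 and at 156 and 122 in Ifit3. Isg15 carries 3 overlapping matches that begin 78, 72 and 66 bases before its start. Rsad2 has 1 match, 120 bases before its start. Ifit3b (chr19:34607747-34607834, plus strand) has the same 88 bases as Ifit3, inside a run of 169 identical bases shared by the windows of the 2 genes. Its matches lie 188 and 154 bases before its start. No match to these letters was found in the windows of Ifit2, Ifi44 and Xaf1. The interferon-gamma element TTCNNNGAA, which reads the same on both strands, matched once in 1 of the 2 windows of Ifit2 and in none of the other genes, against 7.02% of all windows. These are matches of letters and do not show that a factor bound there.

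All 10 genes had their highest mean in the supplemented unirradiated group and their second highest in the adequate unirradiated group. In 8 of the 10 the supplemented irradiated group followed and the adequate irradiated group came last. For Mx1 and Ifi44 these last places were exchanged. For several genes the order of the last places rested on single libraries. Without adequate irradiated replicate 4 the fitted log2 difference, supplemented against adequate after irradiation, turned above 0 for Ifi44 (1.42). Without supplemented irradiated replicate 4 this difference turned below 0 for Ifit1, Ifit2, Mx2, Isg15 and Rsad2. The ranges of the unirradiated groups overlapped for Rsad2 alone, and the ranges of the irradiated groups overlapped in all 10. The adequate unirradiated group stood apart from the group below it for Ifit3, Ifit3b, Mx2 and Xaf1, and these ranges overlapped for the other 6. The 10 genes summed to 513, 456, 549 and 557 CPM in the adequate unirradiated libraries (replicates 1 to 4) and to 215, 261, 176 and 315 CPM in the adequate irradiated ones. They summed to 1808, 1450, 1456 and 998 CPM in the supplemented unirradiated libraries and to 221, 206, 248 and 505 CPM in the supplemented irradiated ones.

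**Figure D1:**
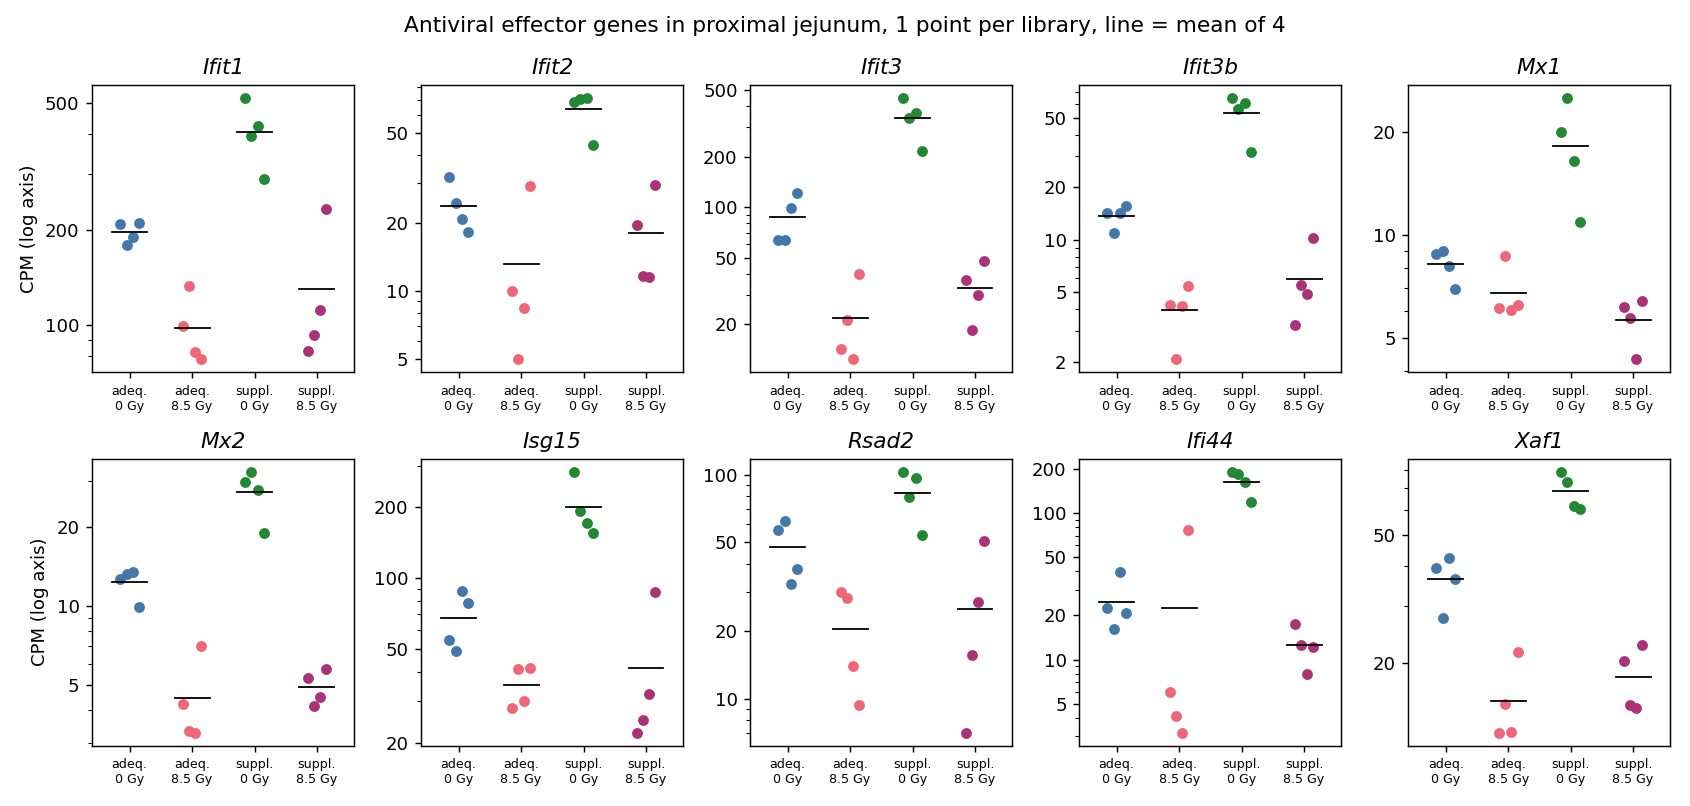
CPM of each of the 10 genes on log axes, with 1 point per library (replicates 1 to 4 from left to right within a group), the 4 groups along the x axis and a line at the group mean. Green points (supplemented diet, 0 Gy) form the highest group in every panel, and a single adequate irradiated library lies above its group for Ifi44, at 76.3 CPM against 3.17 to 6.02 in the others.

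The Ifit genes lie side by side on chromosome 19 and encode the RNA-binding arm of the response. Ifit1, which recognises RNA whose cap lacks a methyl mark, had 209, 179, 190.3 and 211 CPM in replicates 1 to 4 of the adequate unirradiated group and 99.7, 133, 82.1 and 78.3 CPM in the adequate irradiated group. In the supplemented groups it had 520.3, 396, 425 and 288 CPM without irradiation and 82.7, 93.0, 112 and 233 CPM with it. Every unirradiated library was higher than every irradiated library on the same diet. The library with 233 CPM, supplemented irradiated replicate 4, lay above the adequate unirradiated range. Ifit2, which acts with the other Ifit proteins, had 31.8, 24.6, 20.8 and 18.2 CPM in the adequate unirradiated and 9.92, 4.98, 8.40 and 29.1 CPM in the adequate irradiated libraries. Adequate irradiated replicate 4 fell inside the unirradiated range, and the other 3 libraries lay below it. In supplemented mice Ifit2 had 68.7, 71.1, 71.7 and 44.5 CPM without and 19.7, 11.6, 11.5 and 29.4 CPM with irradiation, and those groups did not overlap.

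Ifit3 had 63.7, 63.7, 98.9 and 122 CPM in the adequate unirradiated group and 14.3, 21.2, 12.4 and 39.7 CPM in the adequate irradiated group. It had 449, 341, 363 and 216 CPM in the supplemented unirradiated and 36.7, 18.4, 29.7 and 47.7 CPM in the supplemented irradiated group. Its unirradiated and irradiated libraries stood apart on both diets. Its near copy Ifit3b had 14.2, 10.95, 14.2 and 15.6 CPM and, after irradiation, 4.22, 2.07, 4.198 and 5.41 CPM on the adequate diet. Among supplemented libraries it had 64.8, 56.4, 60.7 and 31.7 CPM, and 3.23, 5.51, 4.89 and 10.3 CPM after irradiation. The order of the groups was the same for both copies. Of the 48-base words of Ifit3's longest transcript 52.1% also occur in Ifit3b, and 45.3% of those of Ifit3b occur in Ifit3. The word length follows the mean fragment length implied by the RSEM gene lengths, 45.03 to 48.4 bases, which was not measured on the RNA. RSEM divides such reads between the copies by estimate, so the split is uncertain. Ifit3b took 14.2 ± 3.01% (SD, n = 4) of the summed counts of the pair in the adequate unirradiated, 17.3 ± 8.03% in the adequate irradiated, 13.5 ± 0.895% in the supplemented unirradiated and 15.7 ± 6.28% in the supplemented irradiated group. These mean shares differed by less than the SD of either irradiated group, while the widest gap exceeded the SD of each unirradiated group.

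The Mx genes encode dynamin-like GTPases, and laboratory mouse strains often carry damaged alleles of them. The annotation used for names lists Mx2 as a polymorphic pseudogene, a gene intact in some strains and broken in others. Mx1 had 8.82, 9.01, 8.14 and 6.94 CPM in the adequate unirradiated and 6.12, 8.71, 6.04 and 6.25 CPM in the adequate irradiated libraries. These groups overlapped through adequate irradiated replicate 2, which held 8.71 CPM in a library of under 4 M counts. Mx1 reached 20.1, 25.2, 16.5 and 10.96 CPM in the supplemented unirradiated group and 6.16, 5.71, 4.34 and 6.40 CPM in the supplemented irradiated group. Mx2 had 12.7, 13.2, 13.5 and 9.89 CPM and, after irradiation, 4.22, 3.32, 3.28 and 6.997 CPM on the adequate diet. It had 29.8, 32.5, 27.8 and 19.0 CPM in the supplemented unirradiated group and 5.28, 4.16, 4.48 and 5.72 CPM in the supplemented irradiated group. Unlike Mx1, Mx2 showed no overlap between doses on either diet.

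Isg15, the ubiquitin-like modifier, had 54.4, 49.1, 88.4 and 78.5 CPM in the adequate unirradiated and 28.1, 41.1, 29.9 and 41.6 CPM in the adequate irradiated group. It had 282, 193, 171 and 156 CPM in the supplemented unirradiated and 22.01, 24.97, 32.0 and 87.5 CPM in the supplemented irradiated group. The doses did not overlap on either diet, although the 87.5 CPM of supplemented irradiated replicate 4 lay close to the top of the adequate unirradiated range. Rsad2, the viral polymerase blocker, had 56.7, 62.2, 32.7 and 38.1 CPM in the adequate unirradiated and 29.9, 28.2, 14.0 and 9.41 CPM in the adequate irradiated group. It had 103, 79.3, 96.3 and 54.0 CPM in the supplemented unirradiated and 7.04, 15.7, 27.1 and 50.5 CPM in the supplemented irradiated group. Its doses stood apart narrowly on both diets, and its diet groups overlapped without irradiation.

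Ifi44 had 22.6, 16.2, 39.6 and 20.6 CPM in the adequate unirradiated and 6.02, 4.15, 3.17 and 76.3 CPM in the adequate irradiated libraries. Replicate 4 of the irradiated group, with 916 counts, was above every unirradiated library of that diet, and the other 3 were below all of them. For supplemented mice Ifi44 had 191, 183, 162 and 118 CPM without irradiation and 17.6, 12.5, 7.99 and 12.1 CPM with it. Xaf1, the XIAP partner, had 39.5, 27.6, 42.5 and 36.6 CPM in the adequate unirradiated and 12.1, 14.9, 12.2 and 21.7 CPM in the adequate irradiated group. It had 78.7, 73.0, 61.7 and 60.3 CPM in the supplemented unirradiated and 20.2, 14.8, 14.5 and 22.7 CPM in the supplemented irradiated group. No group of Xaf1 overlapped with another, apart from the 2 irradiated groups.

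Irradiation on the adequate diet went with lower fitted values for all 10 genes, with a median log2 fold change of -1.13 (from -1.99 to -0.06) beside 0.01 over all genes. Fitted values come from a negative binomial model over the 16 libraries (edgeR), with the standard error (SE) after each. The lowest values were those of Ifit3 (-1.99 ± 0.39), Ifit3b (-1.66 ± 0.31) and Mx2 (-1.40 ± 0.23), followed by Rsad2 (-1.26 ± 0.50), Xaf1 (-1.25 ± 0.20) and Ifit1 (-1.01 ± 0.28). Isg15 (-0.96 ± 0.38), Ifit2 (-0.73 ± 0.44), Mx1 (-0.32 ± 0.23) and Ifi44 (-0.06 ± 0.77) were nearer to 0. Of the 10 genes 5 were called lower at an edgeR adjusted p under 0.05, where 6.58% of all tested genes were, and 7 were lower without overlap of the groups, where 10.1% of all genes were (9.34% were higher in that way). Since the genes were picked with these values in view, nothing is read from the counts. Without adequate irradiated replicate 4 the median was -1.49, Ifit2 had -1.48 and Ifi44 had -2.46 ± 0.37, and 6 were called. Without that library and the 3 of under 4 M counts 5 were called. Ifit2 and Ifi44 became called without adequate irradiated replicate 4 and Isg15 without supplemented irradiated replicate 4. Ifit1 was no longer called without adequate unirradiated replicate 1 or 4 or adequate irradiated replicate 1, 3 or 4, and Ifi44 stood above 0 without adequate unirradiated replicate 3 (0.28) or adequate irradiated replicate 1 (0.26), 2 (0.21) or 3 (0.31).

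Irradiation on the supplemented diet went with a fall of all 10 genes, with a median log2 fold change of -2.10 (from -3.75 to -1.64) beside 0.01 over all genes. Ifi44 (-3.75 ± 0.84), Ifit3 (-3.38 ± 0.40) and Ifit3b (-3.10 ± 0.29) had the largest falls, which amount to a 13.4-fold, 10.4-fold and 8.57-fold lower fitted level. Mx2 (-2.49 ± 0.23), Isg15 (-2.25 ± 0.38), Xaf1 (-1.94 ± 0.20) and Ifit2 (-1.85 ± 0.42) stood between, and Mx1 (-1.70 ± 0.22), Rsad2 (-1.69 ± 0.48) and Ifit1 (-1.64 ± 0.28) had the smallest. All 10 were called lower by edgeR, where 7.21% of all tested genes were, and all 10 had groups without overlap, where 9.23% of all genes were lower in that way and 9.43% higher. Again nothing is read from those counts. Without supplemented irradiated replicate 4 the median was -2.42 with 10 called, and without adequate irradiated replicate 4 and the libraries of under 4 M counts 9 were called. Rsad2 was no longer called without supplemented unirradiated replicate 1, 2 or 3 or supplemented irradiated replicate 1, 2 or 3.

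Supplementation without irradiation went with higher fitted values for all 10 genes, with a median log2 fold change of 1.304 (from 0.82 to 2.72) beside -0.01 over all genes. Ifi44 had 2.72 ± 0.79, Ifit3 1.97 ± 0.38 and Ifit3b 1.96 ± 0.27. Isg15 (1.56 ± 0.37), Ifit2 (1.46 ± 0.42), Mx1 (1.15 ± 0.21), Mx2 (1.15 ± 0.21) and Ifit1 (1.05 ± 0.28) followed, and Xaf1 (0.91 ± 0.19) and Rsad2 (0.82 ± 0.47) had the smallest values. In 9 genes each supplemented library was higher than each adequate one, where 4.71% of all genes were higher in that way and 4.43% lower, and Rsad2 was the exception. An unadjusted edgeR p under 0.05 was reached by 9, where 6.03% of all genes did so higher and 5.91% lower. At an edgeR adjusted p under 0.05 Ifit3, Ifit3b, Mx1 and Mx2 were called higher, where 0.169% of all tested genes were, and nothing is read from these counts. The number called moved with the settings, from 0 without the 3 libraries of under 4 M counts to 8 with DESeq2 and 9 in a fit of the 2 unirradiated groups alone. Over those settings the median log2 fold change of the 10 genes stayed near its main value, at 1.33 without the libraries of under 4 M counts and 1.31 in the fit of the 2 groups. Without adequate irradiated replicate 4, and likewise without supplemented irradiated replicate 4, 7 were called, although neither library belongs to the groups compared.

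Between the diets after irradiation the groups overlapped for every one of the 10 genes, with a median log2 fold change of 0.30 (from -0.97 to 0.58). Positive values were those of Ifit3 (0.58 ± 0.38), Ifit3b (0.53 ± 0.32), Ifit1 (0.42 ± 0.28), Rsad2 (0.39 ± 0.49), Ifit2 (0.34 ± 0.44), Isg15 (0.27 ± 0.38), Xaf1 (0.22 ± 0.21) and Mx2 (0.05 ± 0.24). Mx1 (-0.23 ± 0.23) and Ifi44 (-0.97 ± 0.80) were below 0. No gene of the 10 was called by edgeR, DESeq2 or limma voom, 0 had an unadjusted p under 0.05, and 0% of all tested genes were called by edgeR. Ifi44 could not be called by DESeq2, which gave no adjusted p for it. Over all genes 2.13% were higher and 3.13% lower at an unadjusted p under 0.05, and 1.44% were higher and 1.7% lower without overlap. Leaving out supplemented irradiated replicate 4 turned Ifit1 (-0.02), Ifit2 (-0.07), Mx2 (-0.05), Isg15 (-0.39) and Rsad2 (-0.15) below 0 and moved the median to -0.06. Leaving out adequate irradiated replicate 4 moved Ifi44 to 1.42 ± 0.37 and the median to 0.43. In that fit 4 of the 10 had an unadjusted edgeR p under 0.05 and 0 were called. With the libraries of under 4 M counts left out as well, 3 had such a p and 0 were called. Mx2 was also below 0 without adequate irradiated replicate 2 (-0.01) or 3 (-0.10).

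The interaction subtracts the log2 response to irradiation in adequate mice from that in supplemented mice. It was negative for all 10 genes, with a median of -1.21 (from -3.69 to -0.43). Ifi44 had -3.69 ± 1.12, Ifit3b -1.44 ± 0.42, Ifit3 -1.39 ± 0.53, Mx1 -1.38 ± 0.32, Isg15 -1.30 ± 0.53, Ifit2 -1.12 ± 0.60 and Mx2 -1.10 ± 0.32. Xaf1 (-0.69 ± 0.28), Ifit1 (-0.63 ± 0.39) and Rsad2 (-0.43 ± 0.68) had the smallest values. None was called by edgeR, DESeq2 or limma voom, where 0% of all tested genes were called by edgeR. DESeq2 gave no adjusted p for Ifi44 and so could not call it. At an unadjusted p under 0.05 edgeR gave 7, where 2.54% of all genes were lower in that way and 1.92% higher. Without adequate irradiated replicate 4 Ifi44 stood at -1.30, the median at -0.81 and 4 genes had an unadjusted p under 0.05. Without supplemented irradiated replicate 4 the median was -1.50, 9 genes had an unadjusted p under 0.05, and Rsad2 stood at -0.98 and Ifit1 at -1.07. The adequate and supplemented contrasts and the interaction use the same libraries, so they are not independent of each other.

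**Figure D2:**
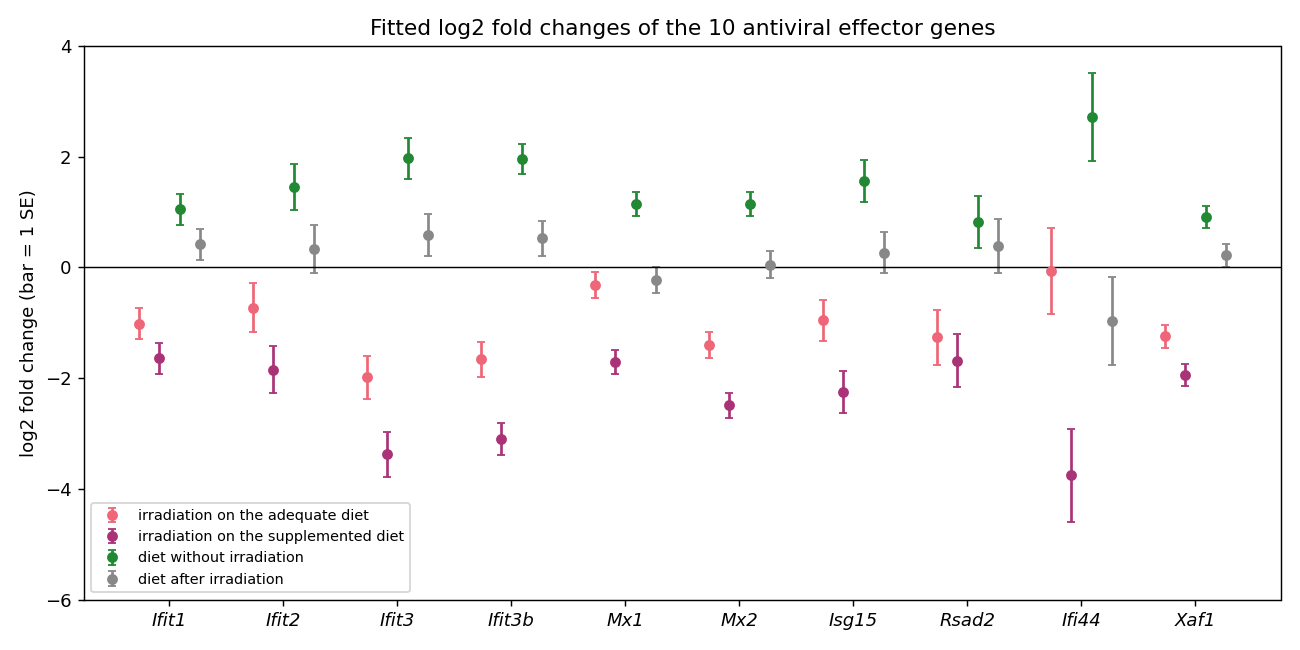
Fitted log2 fold changes (y axis) of the 10 genes (x axis) with bars of 1 SE, in 4 comparisons of 4 libraries against 4. Both irradiation contrasts lie below 0 for each gene, diet without irradiation lies above 0, and diet after irradiation scatters about 0, with Ifi44 at -0.97 ± 0.80.

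Levels can be compared between genes only per length, for which TPM (transcripts per 1 M transcripts) served, within a group. In the supplemented unirradiated group Isg15 had the highest level, 106 ± 41.99 TPM (SD, n = 4), followed by Ifit3 (74.3 ± 25.4), Ifit1 (57.7 ± 17.6), Xaf1 (28.6 ± 6.82) and Ifi44 (27.0 ± 7.56). Ifit3b (10.1 ± 2.97), Rsad2 (9.80 ± 2.87), Ifit2 (6.26 ± 1.15), Mx2 (4.21 ± 0.902) and Mx1 (2.91 ± 1.28) were lower. The libraries of neighbours in that order overlapped, except between Ifit1 and Xaf1, between Ifi44 and Ifit3b and between Rsad2 and Ifit2. In the adequate unirradiated group Isg15 (34.99 ± 10.7 TPM), Ifit1 (27.6 ± 3.08), Ifit3 (18.8 ± 6.82) and Xaf1 (15.98 ± 2.85) led as well, while Ifi44 had 3.94 ± 2.51 TPM. In the adequate irradiated group Isg15 had 8.57 ± 1.58 and Mx2 0.325 ± 0.134 TPM. Isg15 in the supplemented unirradiated group exceeded on average 98.9% of 17724 protein-coding genes, and Mx1 exceeded 61.6%. TPM is not compared across doses here, because protein-coding genes held 12.7 to 17.3% of TPM in unirradiated and 5.60 to 9.63% in irradiated libraries, with small nucleolar RNAs taking 32.1 to 50.8% and 50.6 to 66.3%. For Mx1, which has 7 annotated transcripts, the length that RSEM assigned also moved, from 1142 to 2712 bases in the adequate unirradiated to 2867 to 3006 bases in the adequate irradiated libraries.

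Over the 16 libraries the 45 pairs of genes had Pearson correlations of log2 CPM between 0.51 and 0.98 (median 0.89). These values share the group differences, and after the group means were removed they lay between -0.45 and 0.87 (median 0.40). Rsad2 was least like the others, with a median of 0.74 over libraries and -0.05 within groups, and Xaf1 was most like them within groups, at 0.61. Adequate irradiated replicate 4 was lowest of its group for Rsad2 (9.41 CPM) and Ifit1 (78.3 CPM) and within it for Mx1. It was highest for Ifi44 (76.3 CPM) and also for Ifit2, Ifit3, Ifit3b, Mx2, Isg15 and Xaf1. The correlations were not recomputed without that library. Among 12314 other protein-coding genes, the 8 closest to the mean of the 10 over the 16 libraries were Rnf213 (r = 0.99), Stat2 (0.98), Oas1g (0.98), Znfx1 (0.98), Zc3hav1 (0.97), Oasl2 (0.97), Dhx58 (0.97) and Slfn2 (0.97). Within groups their r lay between 0.77 (Slfn2) and 0.91 (Rnf213). Rnf213, a large ubiquitin ligase, averaged 1207 CPM in the adequate unirradiated, 595 in the adequate irradiated, 2629 in the supplemented unirradiated and 716 in the supplemented irradiated group. These correlations are descriptions over libraries that share groups and depth.

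The genes of the pathway that carries the interferon signal were listed by step. Of 14 listed interferons, 9 were matched in the files. Ifnb1, Ifna2, Ifna4, Ifna12 and Ifne had 0 counts in all 16 libraries, which allows up to 3 counts each in 150.2 M. Ifng, the type II interferon of lymphocytes, had 6 counts, and the type III interferons Ifnl2 and Ifnl3 had 1 count each. Ifnk, an epithelial type I interferon, was the single one with enough counts to test, at 165 counts in all and 1.45 ± 0.303 CPM (SD, n = 4) in the adequate unirradiated, 1.10 ± 0.541 in the adequate irradiated, 0.856 ± 0.292 in the supplemented unirradiated and 0.914 ± 0.507 in the supplemented irradiated group. Its values overlapped between doses and it was not called in any comparison. Such limits cover counting error only.

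Of 6 interferon receptor genes (Ifnar1, Ifnar2, Ifnlr1, Il10rb, Ifngr1 and Ifngr2) 0 were called in each of the 5 comparisons by edgeR, by DESeq2 or by limma voom, and 0 had an unadjusted p under 0.05. Ifnar1, which type I interferon binds, had 31.1 ± 6.72, 35.1 ± 1.16, 33.6 ± 1.53 and 31.9 ± 3.23 CPM in the adequate unirradiated, adequate irradiated, supplemented unirradiated and supplemented irradiated groups. Ifnlr1, the specific chain of the type III receptor, had 22.3 ± 4.76, 19.1 ± 5.39, 23.1 ± 3.91 and 16.8 ± 6.40 CPM in the same order. Its log2 fold change with irradiation was -0.24 ± 0.26 on the adequate and -0.41 ± 0.26 on the supplemented diet.

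Among 11 genes of JAK, STAT and IRF signalling 3 fell on the adequate diet (median -0.21) and 5 on the supplemented diet (median -0.23), and 0 rose. Of all tested genes edgeR called 6.58% lower on the adequate and 7.21% on the supplemented diet. With 1 library left out, 1 to 3 of the 11 fell and 0 to 1 rose on the adequate diet. On the supplemented diet 4 to 5 then fell. Stat2, a subunit of the ISRE-binding complex, had 85.0 ± 10.7 CPM in the adequate unirradiated and 49.97 ± 5.67 in the adequate irradiated group (log2 fold change -0.77 ± 0.14, edgeR adjusted p = 0.00227). It had 133 ± 14.4 CPM and 52.4 ± 9.60 CPM in the supplemented groups (-1.34 ± 0.14, edgeR adjusted p = 2.67e-05). Irf7, the factor that amplifies interferon production, changed by -0.92 ± 0.25 (edgeR adjusted p = 0.0222) on the adequate and -1.74 ± 0.25 (adjusted p = 0.000370) on the supplemented diet. Irf9, the DNA-binding subunit, fell less, by 0.42 on the log2 scale on the adequate diet (edgeR adjusted p = 0.0394). Irf9 fell by 0.44 on the supplemented diet, where Irf3 (-0.63 ± 0.14) was also called.

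Of 14 genes that sense foreign nucleic acid 2 fell on the adequate diet, Dhx58 (-1.36 ± 0.33, edgeR adjusted p = 0.0137) and the adaptor Mavs (-0.49 ± 0.15, adjusted p = 0.0383), and 0 rose. With the supplement 7 fell and 0 rose, among them Dhx58 (-1.92 ± 0.32, edgeR adjusted p = 0.00123) and the RNA sensor RIG-I, listed as Ddx58 (-0.93 ± 0.19, adjusted p = 0.00424). The median of the list was -0.17 on the adequate and -0.53 on the supplemented diet. Of all tested genes edgeR called 6.58% lower on the adequate and 7.21% on the supplemented diet. With 1 library left out, 0 to 3 of the 14 fell and 0 to 1 rose on the adequate diet. On the supplemented diet 6 to 8 then fell. Dhx58, a helicase that tunes RIG-I signalling, went from 36.6 ± 3.79 to 13.8 ± 7.06 CPM on the adequate diet. On the supplemented diet it went from 78.5 ± 11.2 to 20.8 ± 10.4 CPM.

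Of 5 genes that attach or remove Isg15, the activating enzyme Uba7 fell on the adequate diet (-0.80 ± 0.18, edgeR adjusted p = 0.00690) and all 5 fell on the supplemented diet. The deconjugase Usp18 fell from 109 ± 16.6 to 23.2 ± 13.9 CPM there (-2.21 ± 0.31, edgeR adjusted p = 0.000368), and the ligase Trim25 by 0.92 on the log2 scale (edgeR adjusted p = 0.000760). Of 9 genes of the oligoadenylate synthetase list 6 fell on the adequate and 8 on the supplemented diet. Of all tested genes edgeR called 6.58% lower on the adequate and 7.21% on the supplemented diet. With 1 library left out, 2 to 7 of the 9 fell on the adequate diet, with 2 without adequate irradiated replicate 1. On the supplemented diet 8 fell in each such fit. Of the 5 genes for Isg15, 1 to 3 then fell on the adequate and 3 to 5 on the supplemented diet. Oas1g had -1.11 ± 0.24 (edgeR adjusted p = 0.00720) and -2.01 ± 0.25 (adjusted p = 0.000111) on the 2 diets, and Oas1b -1.34 ± 0.24 (adjusted p = 0.00163) and -1.66 ± 0.23 (adjusted p = 0.000233).

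Of 18 relatives of the 10 genes and other antiviral effectors 3 fell on the adequate diet and 16 on the supplemented diet, and 0 rose. Of all tested genes edgeR called 6.58% lower on the adequate and 7.21% on the supplemented diet. With 1 library left out, 2 to 7 of the 18 fell on the adequate and 14 to 17 on the supplemented diet. Adar, which edits double-stranded RNA, went from 110.1 ± 12.3 to 68.4 ± 6.98 CPM (-0.69 ± 0.13, edgeR adjusted p = 0.00315) on the adequate diet. On the supplemented diet it went from 161 ± 14.5 to 67.9 ± 11.4 CPM (-1.24 ± 0.13, edgeR adjusted p = 3.03e-05). Rtp4 (-0.91 ± 0.19) and Ifi35 (-0.71 ± 0.21) were the others called on the adequate diet. The ubiquitin ligase Trim30a fell by 1.76 on the log2 scale on the supplemented diet (edgeR adjusted p = 0.000219) and had -0.15 ± 0.24 on the adequate diet, where it was not called. The genes left uncalled on the supplemented diet were the Ifit1 relatives Ifit1bl1 (-1.11 ± 0.38) and Ifit1bl2 (-0.27 ± 0.25), named after their values were seen. Of the 2609 words of 48 bases in Ifit1, 7.21% also occur in Ifit1bl2.

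Among 7 negative regulators of the pathway the phosphatase gene Ptpn6 fell on the adequate diet (-0.48 ± 0.12, edgeR adjusted p = 0.0175). On the supplemented diet Socs1, an inhibitor of JAK kinases, fell (-1.14 ± 0.27, edgeR adjusted p = 0.00918) and Trim24 rose (0.38 ± 0.11, adjusted p = 0.0318). Over the 70 genes of these lists, without the interferons and the 10 effectors, 16 were lower and 0 higher with irradiation on the adequate diet, beside 6.58% and 7.13% of all genes. On the supplemented diet 42 were lower and 1 was higher, beside 7.21% and 8.03% of all genes. The count on the adequate diet rested on single libraries: it was 6 without adequate irradiated replicate 1, and at most 24 with another library left out. Without adequate irradiated replicate 4 it was 19, and 2 genes were higher. It was 7 without the 3 libraries of under 4 M counts and 13 without those and adequate irradiated replicate 4. On the supplemented diet it was 37 to 44 with 1 library left out.

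For supplementation without irradiation 2 of the 70 genes were called higher by edgeR and 0 lower, beside 0.169% and 0.0302% of all genes. Eif2ak2, the kinase PKR that stops translation when it meets double-stranded RNA, went from 80.0 ± 11.03 to 146 ± 17.3 CPM (0.86 ± 0.14, edgeR adjusted p = 0.0218). Trim30a went from 45.02 ± 7.23 to 120.3 ± 16.01 CPM (1.41 ± 0.24, edgeR adjusted p = 0.0225). For both genes all 4 supplemented libraries were higher than all 4 adequate ones. The median log2 fold change was 0.85 for the antiviral relatives, with 18 of 18 positive, 0.98 for the oligoadenylate synthetases, with 9 of 9 positive, and 0.53 for the Isg15 conjugation genes, with 5 of 5 positive. It was 0.06 for the receptors and 0.16 for JAK, STAT and IRF signalling. At an unadjusted p under 0.05 edgeR gave 39 of the 70, and DESeq2 called 23 higher, limma voom 5 and a fit of the 2 unirradiated groups alone 26. The edgeR count was 0 without adequate unirradiated replicates 1, 2 or 4 or supplemented unirradiated replicates 1, 2 or 3, each left out alone. It was 14 without adequate irradiated replicate 4 and 18 without supplemented irradiated replicate 4. Between the diets after irradiation, and for the interaction, edgeR called 0 of the 70, with 2 and 24 at an unadjusted p under 0.05. DESeq2 called 0 and 1 there, and limma voom called 0 in both. Without adequate irradiated replicate 4 edgeR gave 11 and 12 at an unadjusted p under 0.05, with 0 called in both.

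**Figure D3:**
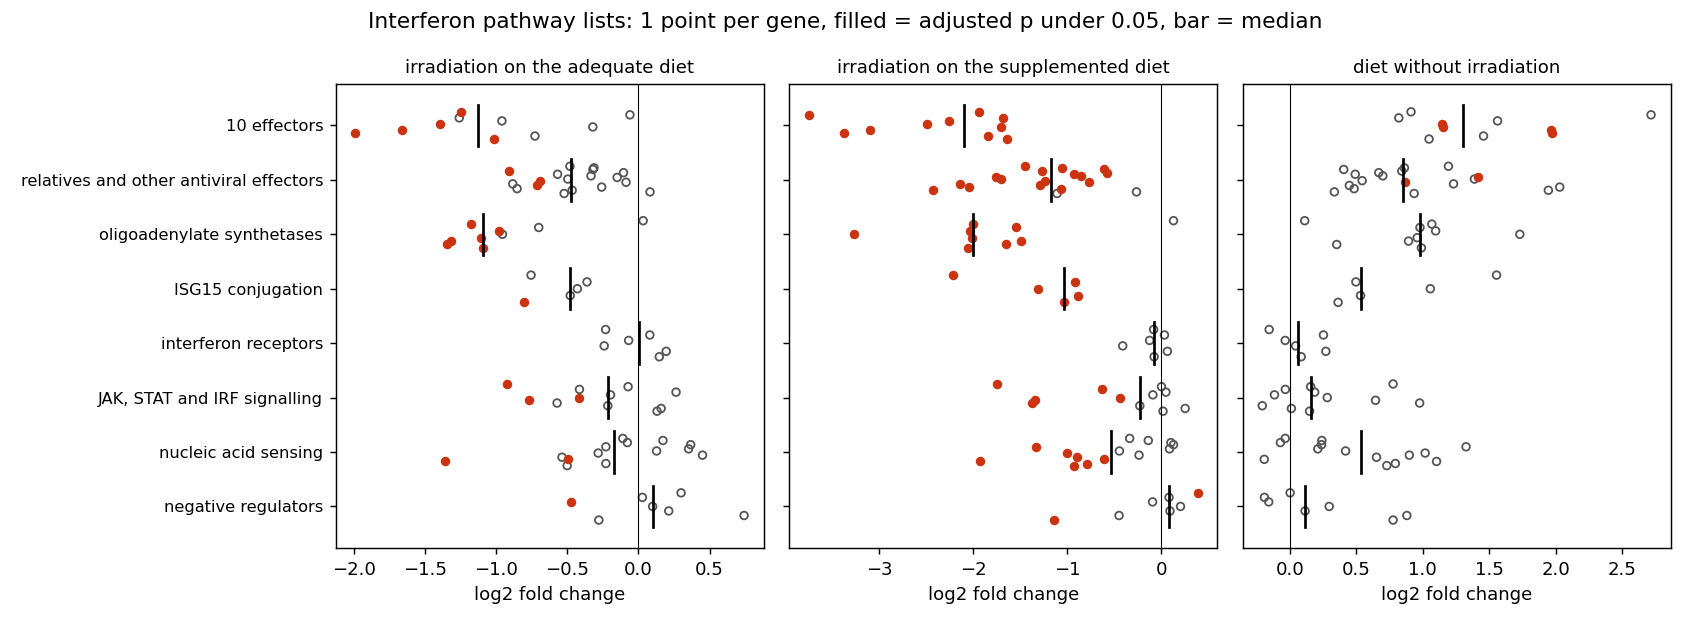
Log2 fold changes (x axis) of the 10 effectors and of the genes of 7 pathway lists (y axis), 1 point per gene, in 3 comparisons; filled points have an edgeR adjusted p under 0.05 and bars are medians. On the supplemented diet all 10 effectors and 8 of 9 oligoadenylate synthetase genes are filled, while the 6 receptors stay near 0 in each panel.

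Some markers of immune cells fell with irradiation, some rose and others were not called, and their part in the fall of the antiviral genes was not tested. Of all tested genes edgeR called 6.58% lower and 7.13% higher on the adequate diet, and 7.21% lower and 8.03% higher on the supplemented diet. Siglech, which marks plasmacytoid dendritic cells, the main source of type I interferon in blood and lymphoid tissue, had 3.45, 2.47, 5.57 and 5.90 CPM in the adequate unirradiated and 0.317, 0.830, 0.614 and 0.583 CPM in the adequate irradiated libraries (-3.00 ± 0.44, edgeR adjusted p = 0.000444). It had 3.66, 6.38, 6.89 and 4.79 CPM in the supplemented unirradiated and 0, 0.470, 0.689 and 0.194 CPM in the supplemented irradiated libraries (-3.65 ± 0.42, edgeR adjusted p = 6.42e-05). Over the 7 markers of that cell type, 1 fell and 1 rose on the adequate diet and 3 fell and 1 rose on the supplemented diet. With 1 library left out, 1 to 3 of them fell on the adequate and 1 to 4 on the supplemented diet. Their summed level lay at 65.9 to 83.9, 69.5 to 96.7, 68.8 to 96.0 and 79.2 to 94.8 CPM in the adequate unirradiated, adequate irradiated, supplemented unirradiated and supplemented irradiated groups. None of the 7 was at 0 in all libraries.

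Of 6 conventional dendritic cell markers Flt3, Clec9a and Cd209a fell on both diets, with the summed level at 38.7 to 52.4, 33.6 to 57.6, 40.3 to 64.9 and 48.7 to 56.9 CPM in the same order of groups. Of 8 macrophage and monocyte markers Itgam, Lyz2 and Mrc1 rose and Ly6c2 fell on both diets, and the sum lay at 145 to 206, 208 to 292, 155 to 244 and 265 to 394 CPM. Of 7 B and plasma cell markers 4 could be tested, all 4 fell on the adequate and 2 on the supplemented diet, and their sum lay at 225 to 443, 69.7 to 116, 179.8 to 399 and 120.1 to 166 CPM. With 1 library left out, 0 to 2 fell on the supplemented diet. Of 9 T and intraepithelial lymphocyte markers 1 fell on both diets and 2 rose on the adequate diet, and the sum lay at 62.01 to 70.4, 61.3 to 78.0, 66.9 to 90.4 and 53.1 to 94.8 CPM. All 5 red blood cell genes fell on both diets.

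Epithelial and stromal markers moved with irradiation as well. All 5 Paneth cell markers rose on both diets, with median log2 fold changes of 1.93 and 2.01. Of 6 crypt base and cycling markers the stem cell genes Lgr5 and Olfm4 rose on both diets, and all 6 had positive values on both. Of 5 fibroblast markers Dcn rose on both diets and Lum on the supplemented diet, and all 5 were positive on both. Of 6 goblet cell markers Agr2 rose on both diets and Fcgbp on the supplemented diet. Of 5 endothelium markers 1 rose on the supplemented diet, where 8.03% of all tested genes did. Of 3 tested neutrophil markers 1 fell there, where 7.21% of all tested genes did. Of 9 enterocyte markers edgeR called 0 on either diet, with 2 and 0 at an unadjusted p under 0.05, while DESeq2 called 1 higher on the adequate diet and limma voom 0. Of 5 smooth muscle markers edgeR, DESeq2 and limma voom called 0 on either diet, with 1 and 0 at an unadjusted edgeR p under 0.05. Of 4 tested markers of other gut segments and pancreas edgeR called 0 on the adequate diet. On the supplemented diet 2 of them rose, and all 4 were positive, with a median of 1.45. With 1 library left out, 0 to 2 of them rose there. The part of these changes in the fall of the effectors was not tested.

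With supplementation alone the marker lists held no called gene. Of 87 marker genes tested 0 were called by edgeR for diet without irradiation, with 8 at an unadjusted p under 0.05, and DESeq2 and limma voom called 0. The summed levels of dendritic cell, macrophage, B cell and T cell markers overlapped between the 2 unirradiated groups. The fibroblast sum did not overlap, at 410.3 to 539 CPM on the adequate and 546 to 737 CPM on the supplemented diet, as the summed 10 effectors did not, at 456 to 557 against 998 to 1808 CPM. Fitted values were positive for 8 of 8 macrophage and monocyte, 6 of 6 conventional dendritic cell, 5 of 5 fibroblast, 5 of 5 endothelium and 5 of 5 Paneth markers, with medians of 0.32, 0.18, 0.36, 0.22 and 0.49, and negative for 4 of 4 B and plasma cell markers, with a median of -0.62. Their part in the higher effector levels was not tested.

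The 2 irradiated libraries that stood apart in the antiviral genes also had the highest or lowest sums of their groups in many marker lists and some pathway lists. Adequate irradiated replicate 4, with 76.3 CPM of Ifi44, had the highest sums of its group for plasmacytoid dendritic cells (96.7 CPM beside 69.5 to 76.4), conventional dendritic cells (57.6 beside 33.6 to 40.9) and macrophages and monocytes (292 beside 208 to 243). Its sum for B and plasma cells was highest only by little (116 beside 113, 69.7 and 115). It was highest too for crypt base and cycling cells (1461 CPM beside 609.7 to 779), Paneth cells (5834 beside 3985 to 4221), fibroblasts (1108 beside 470.3 to 668), endothelium (175 beside 123 to 138) and smooth muscle (1030.4 beside 568 to 726). It was lowest for enterocytes (15552 CPM beside 29033 to 46737), goblet cells (11286 beside 13137 to 14888) and T and intraepithelial lymphocytes (61.3 beside 65.9 to 78.0). Siglech in that library, at 0.583 CPM, lay within its group. Among pathway lists that library was lowest for receptors (325 CPM beside 381 to 451) and highest for oligoadenylate synthetases (546 beside 333 to 399). It was highest as well for Isg15 conjugation (344 CPM beside 260 to 327) and negative regulators (181.5 beside 151 to 171). In the remaining pathway lists apart from the interferons it lay within its group. Supplemented irradiated replicate 4, with the highest summed effectors of its group, was highest for enterocytes (58757 CPM beside 13853 to 25994) and goblet cells (18486 beside 11231 to 15047). It was lowest for macrophages and monocytes (265 CPM beside 298 to 394), B and plasma cells (120.1 beside 138 to 166), plasmacytoid dendritic cells (79.2 beside 86.6 to 94.8) and crypt base and cycling cells (791 beside 1024 to 1182). In each pathway list apart from the interferons it had the highest sum of its group. Examples are receptors (523 CPM beside 323 to 380), JAK, STAT and IRF signalling (1220 beside 813 to 848) and oligoadenylate synthetases (711 beside 339 to 358). The part of these levels in the high values of those libraries was not tested.

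**Figure D4:**
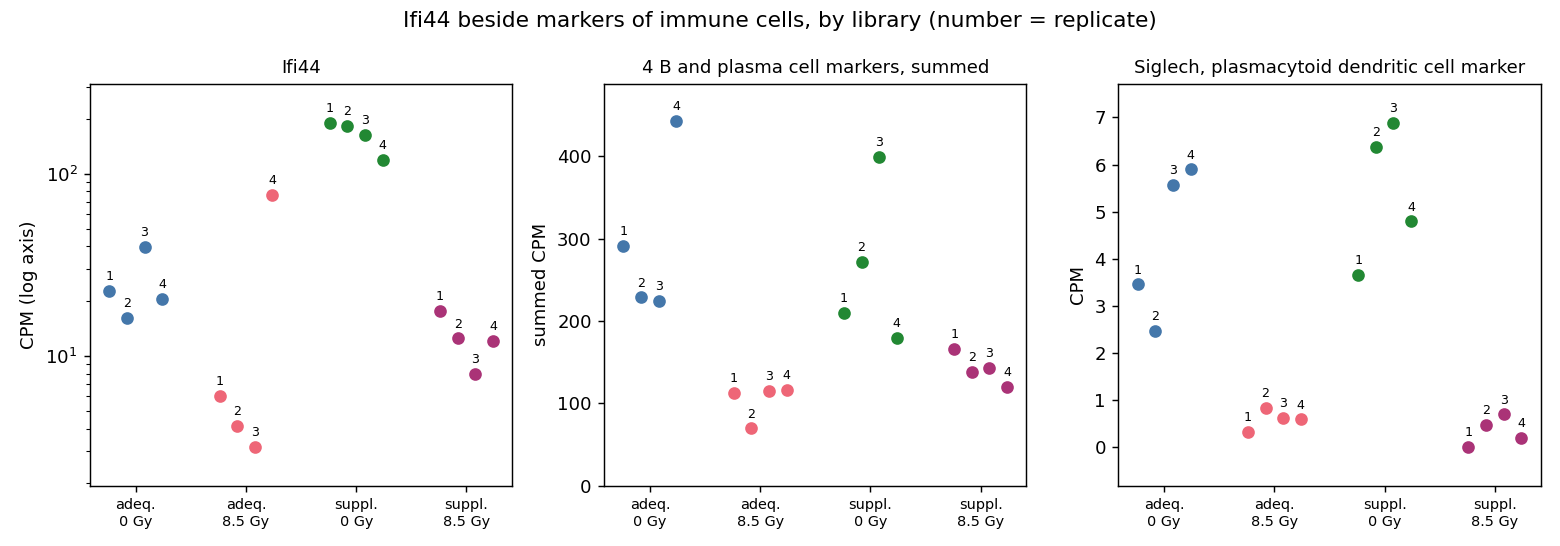
Ifi44 (CPM, log axis), the 4 tested B and plasma cell markers summed (CPM, linear axis) and Siglech (CPM, linear axis) in each library, with groups along the x axis and replicate numbers beside the points. The library with 76.3 CPM of Ifi44, adequate irradiated replicate 4, has 116 CPM of summed B and plasma cell markers, near replicates 1 (113 CPM) and 3 (115 CPM). Its Siglech, at 0.583 CPM, lies within its group.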

How the data were processed

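RNA from 16 libraries was depleted of ribosomal RNA, fragmented and built into libraries with a small RNA kit, per the labels' protocols. The submitters' processing notes name Bowtie2 2.2.9, RSEM 1.3.0, edgeR 3.2.4 and build NCBIM37. Whether counting used strand is not given in the sources used here, so reads of a gene and of an antisense gene cannot be told apart. The deposited RSEM expected counts, estimated per gene, were rounded to whole numbers for testing. The deposited TPM values, named so per the file headers, served only to compare levels between genes. RSEM shares out reads that fit several genes. Symbols came from GENCODE M21 (32897 of 37620 IDs), whose build differs, so no coordinates were taken from it. Promoter windows came from RefSeq (GRCm38.p6).

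Genes were kept by filterByExpr and scaled by TMM, and 5 contrasts of a model with 4 group means were tested with edgeR 4.0.16 (quasi-likelihood, robust, two-sided) in R 4.3.3. P-values were adjusted by Benjamini-Hochberg over the 16558 genes of a contrast, and genes with an adjusted p under 0.05 were called. CPM values are given per library or as mean ± SD. Alternatives used DESeq2 1.42.0, limma 3.58.1 and the settings named in the closing section. The fits were tested on simulated data. Group membership came from the labels. Replicate numbers follow accession order and pair no libraries. The labels name no batch and no animal, so p-values measure the spread between libraries, which may be technical. Within groups libraries correlated at 0.922 to 0.983, and no pair was a copy (chi-square per degree of freedom at least 10.4).

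The 10 genes and all lists were chosen with earlier results of these data known. Named genes are the 10 members, the 2 genes with the smallest p per pathway list and contrast among those called (every gene of a list where at most 3 were called), and the 8 protein-coding genes with mean log2 CPM of at least 1 and the highest correlation with the members' mean. Other genes were named after their values were seen. A few genes of the lists are not reported here.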

Additional observations from a re-analysis of the deposited data

Results flagged for a closer look

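Of the 40 sets of 4 libraries (10 genes in 4 groups), 4 held a library whose distance from the nearest other library relative to the range of the set was above Dixon's 95% critical value, and chance gives that in about 1 set in 20. The sets are Ifi44 in adequate irradiated replicate 4 (76.3 CPM), Mx1 in adequate irradiated replicate 2 (8.71 CPM), Isg15 in supplemented irradiated replicate 4 (87.5 CPM) and Ifit2 in supplemented unirradiated replicate 4 (44.5 CPM). Ifi44, Mx1 and Isg15 were high in those libraries and Ifit2 was low.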

How the results depend on the processing

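The fitted log2 fold changes of the 10 genes were recomputed under each alternative, and 16 of the resulting values changed sign, 11 between the diets after irradiation and 5 with irradiation on the adequate diet. For supplementation without irradiation the number of genes called was 4, and it was 2 without TMM, 8 with DESeq2, 0 at an adjusted p under 0.01, 9 in a fit of the 2 groups alone and 0 without the 3 libraries of under 4 M counts. With 1 library left out it ranged from 0 to 7, at 0 without adequate unirradiated replicate 1 or 2 or supplemented unirradiated replicate 1, and at 1 without adequate unirradiated replicate 3 or 4 or supplemented unirradiated replicate 2 or 3. In the other 4 contrasts the count stayed within 1.5 times the main count in each alternative. Ifi44 on the adequate diet stood at 0.18 without the libraries of under 4 M counts and ranged from -2.46 to 0.31 with 1 library left out. Between the diets after irradiation Ifi44 stood at 0.0194 with limma voom and at 1.24 without adequate irradiated replicate 4 and the libraries of under 4 M counts together, an alternative chosen after seeing the data, and Mx2 at -0.0374 without the libraries of under 4 M counts. With 1 library left out the values between the diets after irradiation ranged from -1.34 to 1.42 for Ifi44, -0.0233 to 0.59 for Ifit1, -0.0690 to 1.09 for Ifit2, -0.10 to 0.39 for Mx2, -0.39 to 0.46 for Isg15 and -0.15 to 0.70 for Rsad2. The cause of these changes was not tested.

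Without TMM the median of all genes shifted to -0.16 with irradiation on the adequate diet and -0.20 on the supplemented diet. Genes called over the whole table then split into 614 higher and 2258 lower on the adequate diet (1180 and 1090 with TMM), and 671 and 2959 on the supplemented diet (1329 and 1194 with TMM). The median of the 10 genes was -1.30 and -2.32 there, and no gene of the 10 changed direction there. For supplementation without irradiation 28 genes of the whole table were called higher and 5 lower with edgeR, 165 and 61 with DESeq2, 111 and 28 in a fit of the 2 groups alone and 39 and 12 with limma voom. DESeq2 gave no adjusted p for Ifi44 in any comparison, so the DESeq2 counts of called genes cover the other members only. Ifit3b, Mx2, Ifi44, Ifit2 and Mx1 had 5, 8, 10, 12 and 21 counts in the libraries with the fewest, which limits the precision of their fold changes. No paired analysis was possible because replicate numbers follow accession order and the labels tie no libraries together.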
